A study of Mus musculus with 6 samples.

Results

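The genes described here were 5 HOXA genes (Hoxa3, Hoxa5, Hoxa7, Hoxa9 and Hoxa10), 3 HOXB genes (Hoxb2, Hoxb4 and Hoxb5) and Meis1. They were chosen by gene symbol, and all 9 were found among the 55487 genes counted in each library. The libraries came from LSK cells, bone marrow cells that lack lineage markers and carry KIT and SCA1, which hold the blood stem cells and the earliest multipotent progenitors. The cells were sorted from Brm-/- (BrmKO) mice for 3 libraries and from wild-type (WT) mice for 3, both labelled with the strain background C56Bl/6. Brm is the older name of Smarca2, one of a pair of alternative ATPases of the SWI/SNF chromatin remodelling complex. The labels gave neither the deleted part of the gene nor whether it was missing from all tissues, and they gave no age. The comparison asks whether LSK cells without BRM held different amounts of these transcripts.

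HOX genes encode homeodomain transcription factors and lie in 4 clusters, in which neighbouring genes tend to be active together. In blood formation the HOXA and HOXB genes are most active in stem cells and early progenitors and are turned down as cells mature, and HOXA9 is the member most closely tied to stem cell self-renewal and to acute leukaemia. HOX proteins bind DNA with TALE cofactors, homeodomain proteins with a loop extension, which include the MEIS, PBX, PKNOX and TGIF families. In Drosophila the gene brahma, for which Brm is named, belongs to the trithorax group that keeps homeotic genes active, and Polycomb group proteins keep them silent. Meis1 was the only TALE gene among the 9, so the other TALE genes are given from a separate list.

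The counts do not measure promoters, and the sequences before the start sites are shown as context for the genes. The RefSeq table of GRCm38.p6 held promoter sequence for 7 of the 9 genes, and Hoxb2 and Hoxb5 were not matched. The 250 bases before the start are printed, 5′ to 3′ on the gene's own strand, for the 3 genes that the results turn on (Hoxa9, Hoxa10 and Meis1) and for Hoxb4, a HOXB gene read at under 1 CPM (counts-per-million, reads scaled to library size). A CCAAT box, written CCAAT or, on the other strand, ATTGG, is in capitals where the search found one. Hoxa9 was read from chr6:52227371-52227620 (minus strand), Hoxa10 from chr6:52234940-52235189 (minus strand), Hoxb4 from chr11:96318017-96318266 (plus strand) and Meis1 from chr11:19018970-19019219 (minus strand).
Hoxa9: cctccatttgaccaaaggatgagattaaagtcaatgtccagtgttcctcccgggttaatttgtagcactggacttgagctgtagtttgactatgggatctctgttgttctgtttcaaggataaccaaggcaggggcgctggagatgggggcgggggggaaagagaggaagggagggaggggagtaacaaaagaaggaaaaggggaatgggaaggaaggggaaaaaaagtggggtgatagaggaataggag
Hoxa10: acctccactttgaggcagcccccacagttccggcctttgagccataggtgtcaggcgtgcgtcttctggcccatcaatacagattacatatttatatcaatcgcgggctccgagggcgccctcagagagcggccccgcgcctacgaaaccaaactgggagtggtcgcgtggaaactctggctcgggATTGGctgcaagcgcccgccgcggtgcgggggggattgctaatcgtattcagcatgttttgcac
Hoxb4: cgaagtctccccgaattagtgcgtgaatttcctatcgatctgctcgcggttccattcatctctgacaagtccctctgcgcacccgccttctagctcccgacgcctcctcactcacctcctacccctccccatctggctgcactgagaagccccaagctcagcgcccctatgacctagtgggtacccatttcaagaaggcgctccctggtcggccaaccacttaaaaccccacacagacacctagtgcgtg
Meis1: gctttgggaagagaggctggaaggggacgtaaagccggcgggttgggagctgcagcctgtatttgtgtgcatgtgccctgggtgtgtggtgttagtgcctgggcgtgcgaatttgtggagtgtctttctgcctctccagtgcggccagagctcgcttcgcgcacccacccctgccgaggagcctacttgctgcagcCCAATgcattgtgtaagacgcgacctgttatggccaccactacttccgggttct
RefSeq gave Hoxa10 a second start, with the window chr6:52240855-52241104. The windows of Hoxa10 and Meis1 each held 1 CCAAT box, 64 and 54 bases before the start, and those of Hoxa9 and Hoxb4 held none. Of 32851 such windows in the mouse table, 33.8% held this motif, so a match is common. The E-box CACGTG (6.02% of all windows), the MEIS half-site TGACAG (15.9%) and the PBX-HOX site TGATNNAT (7.68%), searched on both strands, were absent from all 4. The windows differed in base composition, with 49.6% G and C and 3 CpG for Hoxa9, against 59.2% and 20 CpG for Hoxa10. Hoxb4 had 58% and 14 CpG, and Meis1 59.6% and 13 CpG. Over all windows the median was 52.4% G and C with 6 CpG.

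Between 28013994 and 36457027 reads fell in genes in each library. Smarca2 was at 26.9, 26.5 and 27.9 CPM in BrmKO LSK cells, against 174, 213 and 150 CPM in WT cells, and fell by 2.72 ± 0.13 on the log2 scale (± is the standard error for every log2 fold change, adjusted p = 2.97e-05). Smarca4, the gene of the alternative ATPase BRG1, averaged 331 ± 40.8 CPM in BrmKO cells and 306 ± 40.4 CPM in WT cells (SD, n = 3 each, as for every mean below), a log2 fold change of 0.11 ± 0.13 (adjusted p = 0.999). Unless another test is named, p-values come from edgeR's quasi-likelihood test across 15691 genes, adjusted by the Benjamini-Hochberg method, and fold changes are BrmKO over WT. In that test 22 genes (0.14%) passed an adjusted p of 0.05, 13 higher and 9 lower. Leaving out WT replicate 1, 2 or 3 moved the count to 7, 6 or 36, and leaving out BrmKO replicate 1 moved it to 9. Before adjustment 918 genes (5.85%) had a p under 0.05.

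No member of the group passed the test. Of the 9 genes, 8 had enough reads to be tested, and 0 of them passed with edgeR, DESeq2 or limma-voom, set against 0.14% of all genes with edgeR. Before adjustment 1 of the 8, Hoxa9, had a p under 0.05, against 5.85% of all genes. The log2 fold change was above 0 for 6 of the 8, with a median of 0.14, while 48.8% of all genes were above 0, with a median of -0.01. All 3 BrmKO libraries lay above all 3 WT libraries for 2 of the 8, Hoxa9 and Hoxa10, against 5.69% of all genes. Cells were pooled in each library, so fewer cells of a type and less RNA per cell cannot be told apart.

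**Figure D1:**
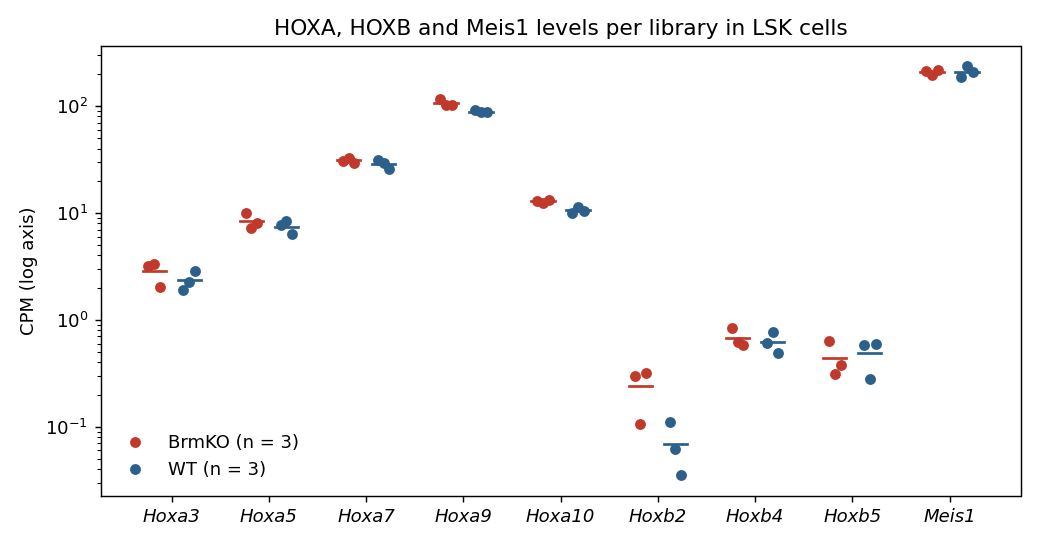
Level of each of the 9 genes in each library, in CPM on a log axis, with BrmKO libraries left of WT libraries, points for libraries and short lines for means. The 3 BrmKO points of Hoxa9 (103 to 116 CPM) lie above the 3 WT points (87.4 to 91.3 CPM), Hoxa10 shows the same separation, and the groups of the other 7 genes overlap.

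Per length, the 9 genes spanned more than 2 orders of magnitude and stood in the same order in both genotypes. This scale is RPKM, CPM per kilobase of exon, computed on the exonic bases that belong to no other annotated gene. Meis1 came first, at 24.1 ± 1.39 RPKM in BrmKO cells and 24.3 ± 2.87 RPKM in WT cells. Hoxa9 followed at 19.6 ± 1.32 RPKM in BrmKO and 16.2 ± 0.391 RPKM in WT cells, then Hoxa7 at 13.6 ± 0.761 and 12.7 ± 1.2 RPKM in BrmKO and WT cells. These 3 levels did not overlap between genes in either genotype. With every exonic base counted, Meis1 stood at 19.7 RPKM in BrmKO and 19.8 RPKM in WT cells, and Hoxa9 at 19.3 RPKM in BrmKO and 15.9 RPKM in WT cells, so in BrmKO cells their means came close and in WT cells they did not. Hoxa5 (4.45 ± 0.745 RPKM in BrmKO and 3.97 ± 0.546 RPKM in WT cells) and Hoxa10 (3.92 ± 0.0991 RPKM in BrmKO and 3.23 ± 0.208 RPKM in WT cells) overlapped each other across libraries in both genotypes. Hoxa3 lay lower, at 0.651 ± 0.162 RPKM in BrmKO and 0.532 ± 0.109 RPKM in WT cells. The HOXB genes closed the order, with Hoxb4 at 0.266 ± 0.0528 RPKM in BrmKO and 0.243 ± 0.0542 RPKM in WT cells. Hoxb5 was at 0.165 ± 0.0634 RPKM in BrmKO and 0.181 ± 0.0671 RPKM in WT cells, and its libraries overlapped those of Hoxb4. Hoxb2 was lowest, at 0.0954 RPKM in BrmKO and 0.0272 RPKM in WT cells, and overlapped Hoxb5 in BrmKO but not in WT libraries.

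Hoxa9 (ENSMUSG00000038227, chr6:52223100-52231089, minus strand) encodes the posterior HOXA protein that is often overexpressed in acute myeloid leukaemia. It was the HOXA gene with the most reads, with 3466, 2964 and 3556 reads in BrmKO libraries, against 3308, 2855 and 2487 reads in WT libraries. On the CPM scale that was 116, 103 and 103 in BrmKO and 91.3, 87.8 and 87.4 in WT cells. Every BrmKO library lay above every WT library. The means were 108 ± 7.24 CPM in BrmKO cells and 88.9 ± 2.15 CPM in WT cells, a log2 fold change of 0.27 ± 0.09 or a fold of 1.21 (95% interval 1.06 to 1.38). The unadjusted p was 0.00978 and the adjusted p 0.586, which placed Hoxa9 at rank 262 of the 15691 genes by p. Over 13 other settings of the processing the log2 fold change of Hoxa9 was between 0.22 and 0.30, its unadjusted p between 0.00378 and 0.0496, and its lowest adjusted p was 0.238. 

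Hoxa10 (ENSMUSG00000000938, chr6:52231197-52240854, minus strand), its neighbour on the 5′ side and also a posterior gene, is known for a part in early myeloid progenitors. Its levels were 12.9, 12.5 and 13.1 CPM in BrmKO cells, against 10, 11.3 and 10.4 CPM in WT cells. The groups did not overlap here either. The means were 12.8 ± 0.324 CPM in BrmKO and 10.6 ± 0.679 CPM in WT cells, a log2 fold change of 0.28 ± 0.15 (95% interval -0.06 to 0.61, adjusted p = 0.913). The estimate was close to that of Hoxa9, with a wider interval that includes 0. Hoxa10 had 385, 358 and 451 reads in BrmKO libraries, against 362, 368 and 296 reads in WT libraries, far fewer than Hoxa9.

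Hoxa7 (ENSMUSG00000038236, chr6:52214491-52221854, minus strand) is a central HOXA gene that rises with HOXA9 in leukaemias with MLL fusions. It had 30.8, 32.9 and 29.4 CPM in BrmKO cells, against 31.5, 29.5 and 26 CPM in WT cells. WT replicates 1 and 2 lay within the BrmKO range, so the groups overlapped. The log2 fold change was 0.10 ± 0.12 (95% interval -0.16 to 0.36, adjusted p = 0.999), and 20.4% of its exonic bases also belong to the noncoding Hoxaas3.

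Hoxa5 (ENSMUSG00000038253, chr6:52201754-52204587, minus strand), described in human progenitors as a regulator of the choice between myeloid and erythroid fates, had 9.9, 7.18 and 7.97 CPM in BrmKO cells, against 7.68, 8.34 and 6.33 CPM in WT cells. The libraries of the groups were interleaved, and the log2 fold change was 0.16 ± 0.21 (95% interval -0.30 to 0.63, adjusted p = 0.999). Hoxa3 (ENSMUSG00000079560, chr6:52169062-52213336, minus strand), the most anterior of the 5, had 3.21, 3.31 and 2.04 CPM in BrmKO cells, against 1.91, 2.25 and 2.85 CPM in WT cells. BrmKO replicate 3 was near the lowest of all 6 libraries and the groups overlapped, at a log2 fold change of 0.29 ± 0.32 (95% interval -0.43 to 1.01, adjusted p = 0.999). That estimate is as large as that of Hoxa9, but it rests on 70 to 96 reads in BrmKO and 69 to 81 reads in WT libraries. Of the exonic bases of Hoxa3, 27.1% also belong to other genes.

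Summed over the 5 HOXA genes, the libraries held 173, 159 and 156 CPM in BrmKO cells, against 142, 139 and 133 CPM in WT cells. The sums did not overlap, and Hoxa9 made up most of each. They averaged 163 ± 8.86 CPM in BrmKO cells and 138 ± 4.75 CPM in WT cells.

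Of the remaining HOXA genes, Hoxa6 alone had enough reads to be tested. Hoxa6, between Hoxa5 and Hoxa7, averaged 3.35 ± 0.324 CPM in BrmKO cells and 3.1 ± 0.708 CPM in WT cells (log2 fold change 0.11 ± 0.28, adjusted p = 0.999). It was the only tested gene among the 13 other HOXA and HOXB genes, and at 3.83 RPKM in BrmKO and 3.55 RPKM in WT cells it stood near Hoxa5 and Hoxa10. Hoxa4 had 14, 9 and 10 reads in BrmKO libraries, against 4, 8 and 2 reads in WT libraries. Hoxa2 had 9, 4 and 16 reads in BrmKO and 5, 8 and 8 in WT libraries. Per length, Hoxa4 (0.267 RPKM in BrmKO and 0.106 RPKM in WT cells) and Hoxa2 (0.2 RPKM in BrmKO and 0.147 RPKM in WT cells) stood far below Hoxa5 and Hoxa10, and Hoxa11 and Hoxa13 had 0 reads in all 6 libraries. A count of 0 allows a level of up to 0.0828 to 0.105 CPM, depending on the library.

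**Figure D2:**
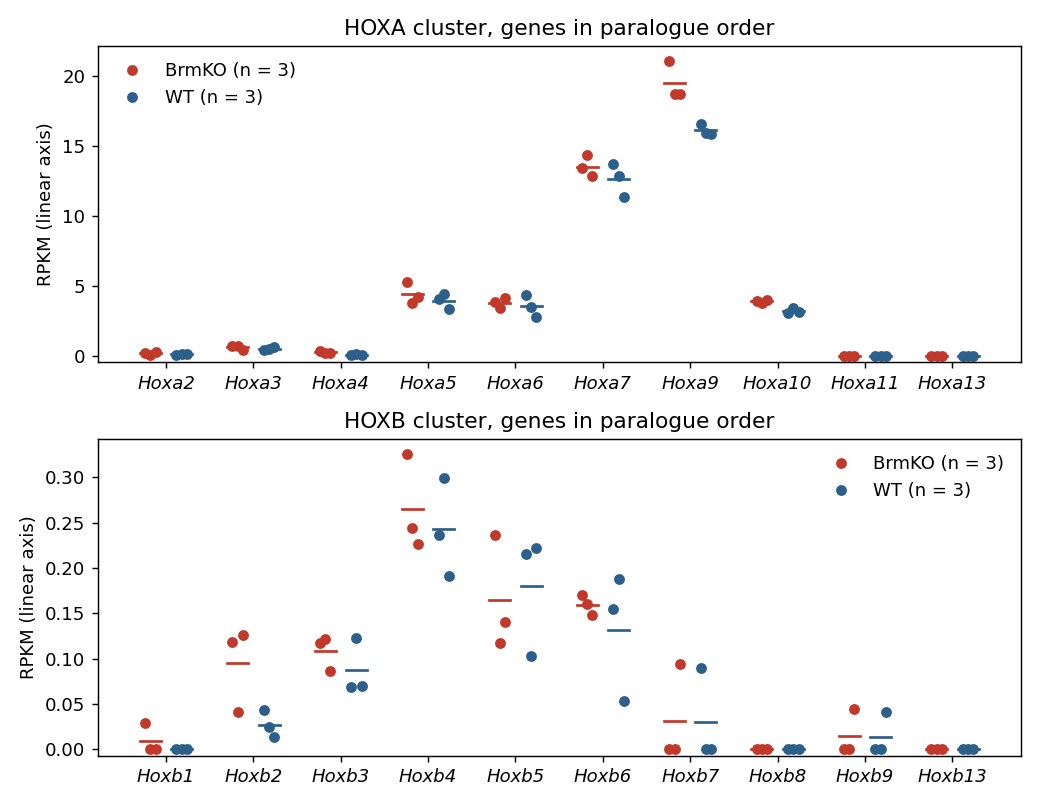
Level of HOXA and HOXB genes in order of paralogue number, in RPKM on exonic bases in no other gene (linear axes of different range), BrmKO left of WT, points for libraries and short lines for means. In both genotypes the HOXA cluster peaks at Hoxa9 (19.6 RPKM in BrmKO, 16.2 RPKM in WT cells), and no HOXB gene reaches 1 RPKM.

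The 3 HOXB genes had few reads in every library. Hoxb4 (ENSMUSG00000038692, chr11:96318267-96321638, plus strand), which expands blood stem cells when overexpressed, had 25, 18 and 20 reads in BrmKO libraries, against 22, 25 and 14 reads in WT libraries. The groups overlapped, at 0.682 ± 0.136 CPM in BrmKO cells and 0.623 ± 0.139 CPM in WT cells, with a log2 fold change of 0.13 ± 0.47 (95% interval -0.93 to 1.19, adjusted p = 0.999). Hoxb5 (ENSMUSG00000038700, chr11:96303336-96306121, plus strand), used in mice as a reporter of long-term stem cells, had 19, 9 and 13 reads in BrmKO libraries, against 21, 9 and 17 reads in WT libraries. Its groups overlapped as well, at 0.442 ± 0.17 CPM in BrmKO cells and 0.485 ± 0.18 CPM in WT cells, with a log2 fold change of -0.13 ± 0.57 (95% interval -1.42 to 1.15, adjusted p = 0.999). As folds these intervals run from 0.523 to 2.27 for Hoxb4 and from 0.374 to 2.23 for Hoxb5. A change of 2-fold upward lies within both, and a change of 2-fold downward lies within that of Hoxb5.

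Hoxb2 (ENSMUSG00000075588, chr11:96350525-96354012, plus strand), an anterior HOXB gene, had 9, 3 and 11 reads in BrmKO libraries, against 4, 2 and 1 reads in WT libraries. BrmKO replicate 2 lay below WT replicate 1 in CPM, so the groups overlapped. The sums were 23 reads in BrmKO libraries (exact Poisson 95% interval 14.6 to 34.5) and 7 reads in WT libraries (2.81 to 14.4), and these intervals cover counting error only. Hoxb2 did not pass the filter on low counts and has no result in the test above. An exact 2-sided permutation test of its CPM gave p = 0.2, where 3 libraries against 3 cannot go below 0.1. Without the filter its log2 fold change was 1.74 ± 1.11 with edgeR (adjusted p = 0.856) and 1.79 ± 1.35 with DESeq2. Of its exonic bases 27.3% also belong to Hoxb3os.

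Among the other HOXB genes, Hoxb6 had 10, 9 and 10 reads in BrmKO libraries, against 11, 12 and 3 reads in WT libraries. Hoxb3 had 7, 7 and 6 reads in BrmKO and 5, 8 and 4 reads in WT libraries, with 52.9% of its exonic bases shared with Hoxb3os. Hoxb7, Hoxb9 and Hoxb1 each had reads in at most 1 library of a genotype, and Hoxb8 and Hoxb13 had 0 in all 6. Summed, Hoxb2, Hoxb4 and Hoxb5 came to 1.37 ± 0.371 CPM in BrmKO cells and 1.18 ± 0.105 CPM in WT cells. Of the 18 HOXC and HOXD genes, 12 had 0 reads in all libraries and 0 could be tested, and their summed level was 0 to 0.201 CPM in BrmKO and 0.166 to 0.352 CPM in WT libraries.

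Meis1 (ENSMUSG00000020160, chr11:18879817-19018985, minus strand), the TALE cofactor that works with HOXA9 in blood stem cells, had the most reads of the 9 genes and the closest means in BrmKO and WT cells. It had 212, 194 and 217 CPM in BrmKO cells, against 185, 235 and 207 CPM in WT cells. The WT libraries enclosed the BrmKO range on both sides. The means were 208 ± 11.9 CPM in BrmKO and 209 ± 24.7 CPM in WT cells, a fold of 0.993 (95% interval 0.845 to 1.17, adjusted p = 0.999). That interval leaves room for a small difference in either direction. The exons of Meis1 share 18.3% of their bases with Gm16140 and Gm37818.

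**Figure D3:**
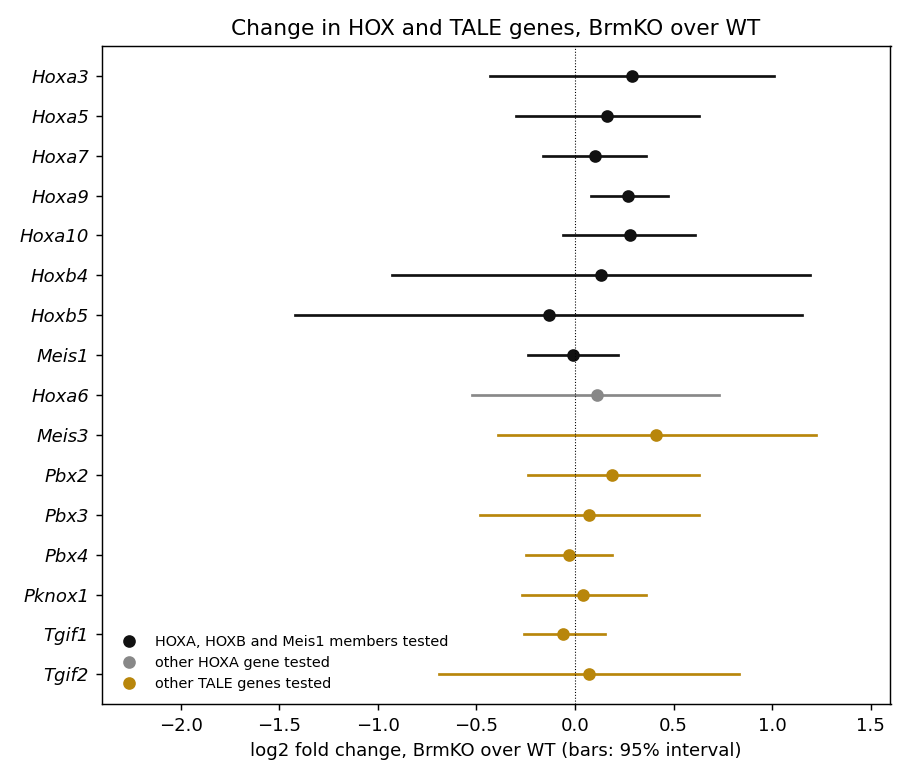
Log2 fold change of each tested gene (BrmKO over WT) with its 95% interval, from edgeR, for the 8 tested genes of the 9, Hoxa6 and 7 other TALE genes. The interval of Hoxa9 (0.08 to 0.47) excludes 0 before adjustment, and those of the other genes shown include 0.

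Of 17 other TALE genes, 8 were tested, 0 passed with edgeR, DESeq2 or limma-voom, and 0 had an unadjusted p under 0.05. Among them 5 were above 0, with a median of 0.06. Per length Pbx4 stood above Pbx2 and Pbx3, at 16.6 RPKM in BrmKO and 16.9 RPKM in WT cells, and averaged 36.7 ± 0.345 CPM in BrmKO cells and 37.4 ± 2.19 CPM in WT cells (log2 fold change -0.03 ± 0.10, 95% interval -0.25 to 0.19).

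Pbx2 had 5.59 RPKM in BrmKO and 4.88 RPKM in WT cells, and Pbx3, a partner of HOXA9 in leukaemia, 1.39 RPKM in BrmKO and 1.31 RPKM in WT cells. Pknox1, which like MEIS proteins binds PBX partners, averaged 77.4 ± 7.3 CPM in BrmKO and 75.1 ± 14.3 CPM in WT cells. Tgif1, a TALE repressor, averaged 68.9 ± 3.98 CPM in BrmKO and 71.7 ± 4.05 CPM in WT cells. The paralogs of Meis1 were low, with 2.61 ± 0.579 CPM in BrmKO and 1.95 ± 0.661 CPM in WT cells for Meis3 (log2 fold change 0.41 ± 0.36, adjusted p = 0.999) and 1 read in each genotype for Meis2. LSK cells of both genotypes thus held Meis1, Pbx4, Tgif1 and Pknox1 as the TALE transcripts above 10 RPKM.

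The transcripts Gm16141, 2610001A08Rik and Gm16140, annotated inside Meis1, varied more across libraries than Meis1, and were chosen for description after their values were seen. Of these Gm16141, an antisense transcript in an intron that shares no exonic bases with Meis1, had 4.95, 4.46 and 12.5 CPM in BrmKO cells, against 2.76, 5.48 and 11.7 CPM in WT cells. The intronic 2610001A08Rik had 2.51, 3.73 and 7.24 CPM in BrmKO cells, against 2.65, 3.35 and 4.29 CPM in WT cells. Gm16140, which shares 79.9% of its exonic bases with Meis1, had 0.836, 1.05 and 1.95 CPM in BrmKO cells, against 0.387, 0.985 and 1.23 CPM in WT cells. All 3 were highest in the library numbered 3 of each genotype, while Meis1 itself was not highest there in WT cells. Other transcripts inside Meis1 did not all share this. Gm37818 had 0.871 CPM in BrmKO replicate 2 and 0.785 CPM in BrmKO replicate 3, and 2900018N21Rik had 1.05 CPM in both. The libraries numbered 3 had the largest share of reads outside genes, 9.29% in BrmKO replicate 3 and 8.41% in WT replicate 3. The other 4 had 5.79% to 6.61%, and the part of that share in these levels was not tested. Between genotypes the log2 fold changes were 0.15 ± 0.55 for Gm16141, 0.39 ± 0.39 for 2610001A08Rik and 0.57 ± 0.54 for Gm16140 (adjusted p = 0.999 for each).

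**Figure D4:**
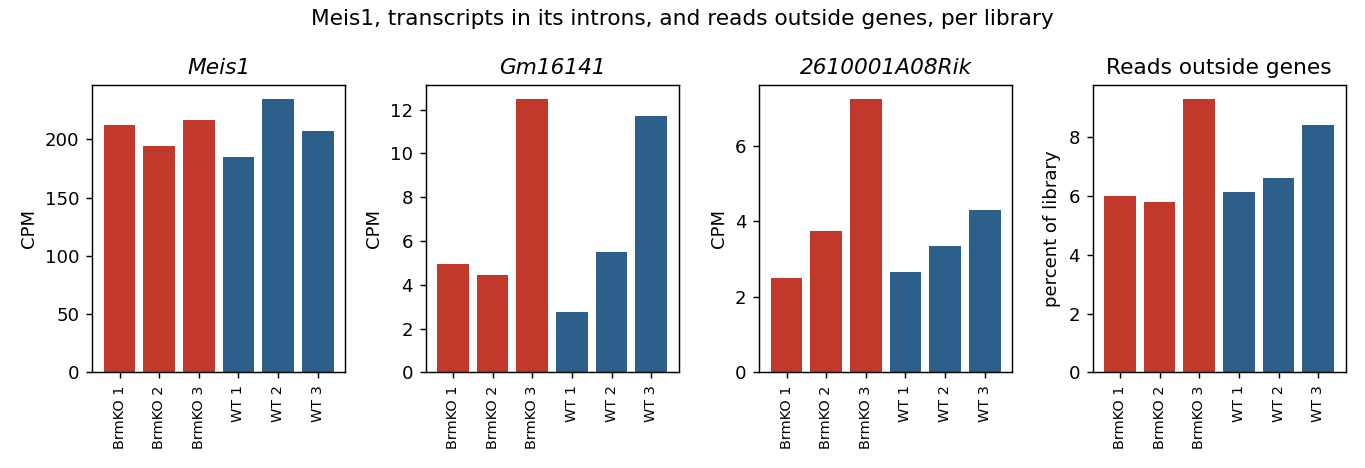
Levels of Meis1, Gm16141 and 2610001A08Rik in each library, in CPM, and the percentage of reads outside genes, with 1 bar for each library and BrmKO left of WT. Gm16141 reaches 12.5 CPM in BrmKO replicate 3 and 11.7 CPM in WT replicate 3, the libraries with 9.29% and 8.41% of reads outside genes.

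Of the noncoding transcripts of the HOX clusters, 18 were listed, 15 were found by name, 9 of these had 0 reads in all libraries and 3 were tested. None of the 3 passed with edgeR, DESeq2 or limma-voom, and 0 had an unadjusted p under 0.05. Hoxaas2 had 12, 14 and 18 reads in BrmKO libraries, against 1, 6 and 11 reads in WT libraries (log2 fold change 1.26 ± 0.78, adjusted p = 0.958). The groups did not overlap, with BrmKO above WT as for 5.69% of all genes tested. As WT replicates 1 and 2 were so low, Hoxaas2 passed the filter through its BrmKO libraries, and its separation is no support for a change. Hoxb5os had 12, 18 and 21 reads in BrmKO libraries, against 13, 6 and 10 reads in WT libraries (log2 fold change 0.87 ± 0.56, adjusted p = 0.971). Its reads overlapped between the groups, with 12 in BrmKO replicate 1 and 13 in WT replicate 1. Only when scaled to library size did they not, at 0.401, 0.627 and 0.611 CPM in BrmKO and 0.359, 0.185 and 0.352 CPM in WT libraries. Here too 5.69% of all genes tested had BrmKO above WT, and at so few reads the separation is no support for a change. Hoxaas3 had 19, 20 and 42 reads in BrmKO libraries, against 49, 22 and 53 reads in WT libraries (log2 fold change -0.60 ± 0.50, adjusted p = 0.999). The library kit does not mark strand, so a read on bases shared with a HOX gene cannot be placed by strand. Such shared bases made up 15% of the exonic bases of Hoxaas2 and 14.4% of those of Hoxb5os, and Hoxaas3 shared 30.7% with Hoxa3, Hoxa7 and Gm28308. Hotairm1, Hottip and Hotair had 0 reads in all 6 libraries.

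Of 20 genes in the regions around the clusters and Meis1, not all directly adjacent, 15 were tested and 0 passed with any of the 3 tools. Of the 15, 2 had an unadjusted p under 0.05, and 6 were above 0, with a median of -0.01. For this list and those below, the shares over all genes were 5.85% with an unadjusted p under 0.05 and 48.8% above 0. Spred2, in the region of Meis1 but starting at chr11:19924375, encodes an inhibitor of RAS and MAP kinase signalling. It averaged 17.4 ± 1.68 CPM in BrmKO and 13 ± 2.58 CPM in WT cells (log2 fold change 0.42 ± 0.18, adjusted p = 0.828). Skap1, an adaptor of T cell signalling beside the HOXB cluster, averaged 0.558 ± 0.337 CPM in BrmKO and 1.44 ± 0.432 CPM in WT cells (log2 fold change -1.37 ± 0.55, adjusted p = 0.795).

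Known regulators of HOX genes were counted in the same way. Of 28 positive regulators, which include MLL complex and elongation factor genes, 25 were tested, 0 passed with any of the 3 tools, 0 had an unadjusted p under 0.05, and 12 were above 0 with a median of -0.00. The Cdx genes, homeobox activators of HOX genes in embryos, had 0 reads. Aff4, a scaffold of the super elongation complex, averaged 63.9 ± 1.29 CPM in BrmKO and 72.5 ± 10.8 CPM in WT cells (adjusted p = 0.968). Kdm6b, which encodes an H3K27 demethylase, averaged 8.36 ± 1.48 CPM in BrmKO and 11.5 ± 5.59 CPM in WT cells (adjusted p = 0.999). All 22 Polycomb genes listed were tested, 0 passed with any of the 3 tools, 1 had an unadjusted p under 0.05, and 13 were above 0 with a median of 0.01. That 1 was Pcgf2, encoding a subunit of a Polycomb repressive complex, at 3.03 ± 0.503 CPM in BrmKO and 1.73 ± 0.412 CPM in WT cells (log2 fold change 0.81 ± 0.32, adjusted p = 0.789). Cbx6, a chromodomain subunit, averaged 84.7 ± 5.01 CPM in BrmKO and 75 ± 5.27 CPM in WT cells (adjusted p = 0.913).

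Of 29 genes known as targets of HOXA9 and MEIS1, 28 were tested, 0 passed with any of the 3 tools, 1 had an unadjusted p under 0.05, and 17 were above 0 with a median of 0.05. Over the list the log2 fold changes ran from -1.47 to 0.39, and the 2 genes with the smallest p, both above 0, are named. Hlf, a stem cell transcription factor gene, averaged 94.7 ± 11.5 CPM in BrmKO and 72.2 ± 11.8 CPM in WT cells (log2 fold change 0.39 ± 0.14, adjusted p = 0.706). Its BrmKO libraries all lay above its WT libraries, as for 5.69% of all genes tested. Gfi1, a repressor of stem cell proliferation, averaged 60.2 ± 2.01 CPM in BrmKO and 51.5 ± 5.05 CPM in WT cells (log2 fold change 0.23 ± 0.10, adjusted p = 0.841).

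Since HOXA genes and Meis1 are highest in stem cells, the cell markers of the libraries stand beside these values. Kit averaged 976 ± 27.5 CPM in BrmKO and 941 ± 91 CPM in WT cells, Ly6a (SCA1) 30.5 ± 4.84 CPM in BrmKO and 24.7 ± 6.19 CPM in WT cells, and neither they nor Ptprc passed. Of 19 genes enriched in stem cells, a list that holds Meis1, Hoxb5 and Hlf, 0 passed with any of the 3 tools. Of the 19, 4 had an unadjusted p under 0.05 (1 higher, 3 lower), against 5.85% of all genes. The log2 fold change was above 0 for 8, with a median of -0.06, against 48.8% of all genes above 0. Their summed level was 1288 to 1516 CPM in BrmKO libraries and 1298 to 1670 CPM in WT libraries. Ctnnal1, a stem cell marker, averaged 15.8 ± 1.12 CPM in BrmKO and 23.5 ± 6.94 CPM in WT cells (adjusted p = 0.748).

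Of 11 genes of multipotent and lymphoid-primed progenitors, 0 passed with any of the 3 tools and 5 were above 0 (median -0.03), with summed levels of 3424 to 3471 CPM in BrmKO and 3322 to 3505 CPM in WT libraries. Before adjustment 2 of the 11 had a p under 0.05, against 5.85% of all genes, and 48.8% of all genes were above 0. Among the 2 was Il7r, the interleukin-7 receptor gene, at 9.2 ± 1.68 CPM in BrmKO and 15.1 ± 2.36 CPM in WT cells (adjusted p = 0.432). Of 13 genes listed as markers of mature lineages, 10 were tested and 0 passed with any of the 3 tools. Their sums were 443 to 465 CPM in BrmKO and 463 to 520 CPM in WT libraries, with Cd3e at 0 in all 6. In that list 1 gene had an unadjusted p under 0.05, and Cd79a, a B cell receptor gene, averaged 2.08 ± 0.567 CPM in BrmKO and 3.46 ± 1.15 CPM in WT cells (adjusted p = 0.871).

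The platelet and megakaryocyte list held the one marker that passed. Of its 16 genes 15 were tested, and 1 passed with edgeR, 4 with DESeq2 and 1 with limma-voom. Over all genes 22 passed with edgeR, 141 with DESeq2 and 22 with limma-voom. In the platelet list 6 of the 15 tested genes had an unadjusted p under 0.05, against 5.85% of all genes. In it 0 were above 0 (median -0.60), against 48.8% of all genes. Summed over the list, levels were 606 to 836 CPM in BrmKO libraries, against 917 to 1198 CPM in WT libraries, without overlap. Pf4, the platelet factor 4 gene, passed and fell to 105 ± 3.12 CPM in BrmKO cells, against 159 ± 10.6 CPM in WT cells (adjusted p = 0.0391), but with any 1 of the 6 libraries left out its adjusted p was between 0.0564 and 0.291. Of 18 stromal and endothelial genes, 16 were tested, and 0 passed with edgeR, 3 with DESeq2 and 1 with limma-voom. Of the 16, 6 had an unadjusted p under 0.05, against 5.85% of all genes, and 3 were above 0 (median -1.09), against 48.8%. Their sums were 368 to 453 CPM in BrmKO and 385 to 611 CPM in WT libraries. Pdgfra, a stromal gene, had 0 reads in all 3 BrmKO libraries, against 27, 19 and 21 reads in WT libraries. It did not pass with edgeR (adjusted p = 0.0849), but it was the gene that passed with limma-voom and one of those that passed with DESeq2, with Plvap and Kdr. Kdr, an endothelial gene, averaged 6.27 ± 1.58 CPM in BrmKO and 16.9 ± 9.26 CPM in WT cells (adjusted p = 0.355). The part of these marker levels in the levels of the HOXA genes and Meis1 was not tested.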

How the data were processed

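RNA was sequenced from 3 BrmKO and 3 WT samples of sorted LSK cells with SMART-Seq v4 libraries, which mark no strand and hold no molecular identifiers. Counting intervals and floors therefore leave out other sources of error. The deposited values are raw read counts per Ensembl gene. Per the submitters' processing notes, bcl2fastq, FastQC, STAR, HTSeq and DESeq2 were used with GRCm38. Versions, strand setting and annotation were not given in the sources used. HTSeq's 5 summary lines, 18.9% to 22.8% of each library, were left out of library sizes. HTSeq left reads that it could assign to more than 1 gene uncounted (6.23% to 6.47% were ambiguous).

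Genes with low counts were removed with edgeR's filterByExpr, leaving 15691, scaled by TMM and tested with edgeR 4.0.16 (R 4.3.3) at an adjusted p of 0.05, without a replicate block. DESeq2 1.42.0 and limma 3.58.1 (voom) were alternatives. The tests were checked on simulated data for the sign and size of changes. A bar on false calls was set there for edgeR only, as DESeq2 was more liberal. The standard error is the log2 fold change divided by the square root of F. CPM uses TMM-scaled library sizes, and a count of 0 allows 3 reads. Symbols and exons come from GENCODE M21, which held 55227 of the 55487 genes. No gene elsewhere matched a member's transcripts at 95% identity over 50% of the length (minimap2 2.31). No 2 libraries were alike within sampling noise. By chi-square per degree of freedom over genes, a measure of difference, WT replicate 3 was nearest to BrmKO replicate 3 (20.54). WT replicate 3 differed more from WT replicates 1 and 2 (44.55 and 48.73). BrmKO replicate 3 likewise differed more from BrmKO replicates 1 and 2 (35.41 and 32.02). The libraries numbered 3 thus stood apart from their own groups, and the cause was not tested.

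The 9 genes and Smarca2 are named, and of each other list the genes that passed or, failing that, the 2 with the smallest p. Any HOX, TALE or noncoding gene with reads may be named with its level. Some genes of these lists are not reported here. Members and lists were chosen with earlier results of these data known.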

Additional observations from a re-analysis of the deposited data

How the results depend on the processing

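Over 13 alternatives (2 other scalings, no low-count filter, DESeq2, limma-voom, a replicate block, each library left out, and both libraries numbered 3 left out), 0 of the members passed, and 5 to 8 were above 0. The number of all genes passing was 58 without the filter and 141 with DESeq2, and 6 to 36 with 1 library left out, against 22. Fewer libraries gave 18 genes when both numbered 3 were left out. The estimates of Hoxa3, Hoxa5, Hoxa7, Hoxa9 and Hoxa10 stayed above 0, at 0.16 to 0.65, 0.027 to 0.26, 0.025 to 0.16, 0.22 to 0.30 and 0.24 to 0.33 in that order. Leaving out 1 library turned the sign for Hoxb4 (log2 fold change -0.042 to 0.31 over the 6), Hoxb5 (-0.48 to 0.06) and Meis1 (-0.09 to 0.083), and leaving out both libraries numbered 3 gave Hoxb5 0.14. None of these was called. The cause was not tested. Per length with all exonic bases, chosen after seeing the data, BrmKO levels were 0.474 RPKM for Hoxa3, 10.8 RPKM for Hoxa7 and 19.7 RPKM for Meis1. Same-numbered libraries of the genotypes correlated at r = 0.0518, 0.00775 and 0.194 for numbers 1, 2 and 3. BrmKO replicate 1 correlated best with WT replicate 2 (0.168), so pairing by number was not seen for numbers 1 and 2. The libraries numbered 3 had the largest r, and the cause of that likeness was not tested. With the replicate block 25 genes passed, and Hoxa9 had a log2 fold change of 0.27 (adjusted p = 0.238). Depth limits the HOXB genes, at 1 to 25 reads a library.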

Other observations

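A few genes of the HOX clusters too low to be tested had reads mostly in one genotype, and were picked out after their values were seen. 5730596B20Rik, which lies within the span of Hoxa3, had 1 read over the BrmKO libraries, against 12, 5 and 3 reads in WT libraries. Without the filter on low counts its adjusted p with edgeR was 0.856, and the ratio of WT over BrmKO had a counting interval of 3.06 to 794. Gm29430, an antisense transcript that shares exonic bases with Hoxa3 and Hoxa4, had 2, 3 and 1 reads in BrmKO libraries, against 0 in all WT libraries. Its adjusted p with edgeR, without the filter, was 0.856 as well. Gm53, a noncoding gene between Hoxb13 and Hoxb9, had 0 reads in BrmKO libraries, against 10 reads in WT replicate 1 and 0 in the other WT libraries. In the same edgeR fit its adjusted p was also 0.856. How many genes of such low counts split this way over the whole table was not counted.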
